A study of Arabidopsis thaliana with 12 samples.

Results

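The chloroplast genome of Arabidopsis thaliana was represented by 133 rows whose gene ID begins with ATCG, among 64791 genes and transposable elements in the table, and all 133 were taken as members. Their transcripts were measured in 12 libraries from 2-week-old seedlings grown on plates. The 4 genotypes, with 3 libraries each, were wild type (WT), pkl (pkl-1, mutant in the chromatin remodeler PKL), nrpd1 (nrpd1-3, mutant in the catalytic subunit of RNA polymerase IV) and nrpe1 (nrpe1-11, mutant in that of RNA polymerase V). The RNA was selected by its poly(A) tail. Each mutant is compared here with WT, and nrpd1 also with nrpe1. No treatment was given, whole seedlings were used, and each mutant was represented by 1 allele, so that an effect of the gene and of that allele cannot be told apart.

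Chloroplast genes are read by a bacterial-type RNA polymerase whose core subunits are encoded in the chloroplast (rpoA, rpoB, rpoC1, rpoC2) and whose sigma factors come from the nucleus, and by a phage-type polymerase encoded entirely in the nucleus. The bacterial-type enzyme transcribes mainly photosynthesis genes, the phage-type enzyme mainly housekeeping genes such as rpoB and clpP. Chloroplast mRNA carries no stable poly(A) tail as cytosolic mRNA does; a tail added in the chloroplast marks a transcript for decay. The levels below are those in poly(A)-selected RNA and not in all RNA of a gene. The files give IDs only, and gene names were assigned from feature lengths and gene order in the RefSeq chloroplast annotation. Of the 133 members, 118 had reads, 81 received a name and 108 a functional group.

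The sequences below are shown because a run of A inside a transcript is a stretch that could pair with an oligo(dT) bead; whether any of these runs did so was not tested. Capitals mark the longest run of A, or the first run of that length, in RefSeq sequence of the chloroplast (Pltd, build TAIR10.1). The complete coding sequences of petN (Pltd:28089-28178, plus strand), which codes for a small subunit of the cytochrome b6f complex, and of psbT (Pltd:74082-74183, plus strand), which codes for a small subunit of photosystem II, are given first. For psbA, which codes for the D1 reaction centre protein of photosystem II, rbcL, the large subunit of Rubisco, and rpoB and rpoC2, core subunits of the chloroplast polymerase, 30 coding bases around the run are given (psbA Pltd:1355-1384, minus strand; rbcL Pltd:55492-55521, plus strand; rpoB Pltd:25674-25703, minus strand; rpoC2 Pltd:17917-17946, minus strand).
petN: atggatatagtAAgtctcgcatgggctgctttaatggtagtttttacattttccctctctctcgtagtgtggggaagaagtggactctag
psbT: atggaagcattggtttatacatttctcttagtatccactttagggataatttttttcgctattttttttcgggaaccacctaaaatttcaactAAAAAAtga
psbA: ataactagcactgAAAAccgtctttacatt
rbcL: gggttatccgcgAAAAActatggtagagca
rpoB: cgataaggagAAAAAAAAAAtaggatcaaa
rpoC2: gagtagagAAAAAAAAAAAAAggattgaac
The longest run was 2 bases in petN, 4 in psbA, 5 in rbcL, 6 in psbT, 10 in rpoB and 13 in rpoC2. Over the 58 protein genes without introns that were above 0 in every library, it ranged from 2 to 14 bases, and longer runs did not go with higher levels: across these genes, which share their libraries and are not independent replicates, Spearman's rho between the run and the mean RPKM was -0.39. The share of A in the coding strand, from 20.7% to 40.2%, gave rho -0.42. Feature length itself gave rho -0.245 with the mean RPKM over the same genes, and the value for the run was not adjusted for length.

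Values in the table are RPKM, reads scaled by feature length and by the library's total reads, so levels of different genes are compared per length. psbA had the highest mean level of all members, 333.9 RPKM over the 12 libraries. Its values were 90.8, 968 and 213 RPKM in WT replicates 1, 2 and 3, then 126, 318 and 224 in pkl, 84.3, 284 and 417 in nrpd1, and 135, 563 and 582 in nrpe1. Replicate 1 was lowest in each of the 4 genotypes, and the genotypes overlapped.

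rbcL followed, with 52.5, 340 and 91.7 RPKM in WT, 65.4, 163 and 144 in pkl, 54.7, 120 and 169 in nrpd1, and 92.6, 531 and 266 in nrpe1. The other members among the 5 highest were psaJ, a small photosystem I subunit, with a mean of 167.9 RPKM, rpl32, a ribosomal protein of the large subunit, with 76.9, and psbC, an inner antenna protein of photosystem II, with 75.3. The 5 members with the largest shares of chloroplast reads together held between 41.6% and 57.4% of these reads in a library.

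By function, rbcL stood highest, followed by the medians of the photosystem and ATP synthase genes. Photosystem II genes (psb, 15 members) had mean levels between 12.8 and 333.9 RPKM with a median of 42.6, and the 5 photosystem I genes (psa) between 17.8 and 167.9 with a median of 59.2. The 6 cytochrome b6f genes (pet) had a median of 23.3 RPKM, led by petB and petD, and the 6 ATP synthase genes (atp) one of 42.6, led by atpH and atpE. The 9 genes of the NADH dehydrogenase-like complex (ndh) had mean levels from 1.63 to 10.1 RPKM with a median of 7.01.

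Genes for transcription and translation spanned a wide range of levels. The 4 polymerase genes (rpo) had mean levels from 2.36 to 6.48 RPKM with a median of 5.57. Small-subunit ribosomal protein genes (rps, 11 members) had a median of 3.55 RPKM, with rps14 at 73.0, and those of the large subunit (rpl, 10 members) 10.8, with rpl32 and rpl16 highest. Among the 9 remaining protein genes clpP, the catalytic subunit of the Clp protease, had the highest level, 18.2 RPKM.

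Ribosomal and transfer RNA genes, whose products carry no mRNA tail, were also present. The 2 loci of 23S ribosomal RNA had mean levels of 50.0 RPKM (ATCG00950) and 29.1 RPKM (ATCG01180), and the tRNA features (24 members) a median of 1.27 RPKM. No read was recovered for 15 members, which does not exclude a level too low to be read, and a further 19 never exceeded 3 reads in any library. Per library, 92 to 106 of the 133 members had a read.

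The chloroplast genome holds a large inverted repeat, so that several genes exist in 2 identical copies whose reads cannot be told apart by sequence. Both loci of 23S ribosomal RNA had reads, 21060 in all libraries for ATCG00950 and 12531 for ATCG01180, and the first was higher in 12 of 12 libraries. For 16S ribosomal RNA the totals were 6611 (ATCG00920) and 4593 (ATCG01210), again with the first higher in 12 of 12. The copies of rpl2, a ribosomal protein gene, had 8 (ATCG00830) and 74 reads (ATCG01310), and those of ycf2, a large gene needed for protein import, 1 read each. The unnamed features ATCG00905 and ATCG01230, also a pair of equal length (258 bases), had 21 and 3 reads. How reads with several positions were counted is not stated, and these copies are given as uncertain.

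The share of a library's reads that fell on chloroplast genes varied several-fold between the replicates of each genotype. It was 0.0569%, 0.355% and 0.109% in WT replicates 1, 2 and 3, and 0.0568%, 0.207% and 0.227% in pkl. In nrpd1 it was 0.0659%, 0.121% and 0.151%, and in nrpe1 0.109%, 0.729% and 0.230%. Replicate 1 was lowest in each genotype and nrpe1 replicate 2 highest of all. Library totals were 7204299 reads in nrpe1 replicate 2 and 15242073 to 21475250 in the others. The exact Clopper-Pearson 95% interval for counting error spanned at most 1.94% of a library's share to either side, while the highest share was from 2.29-fold (nrpd1) to 6.71-fold (nrpe1) the lowest within a genotype.

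**Figure D1:**
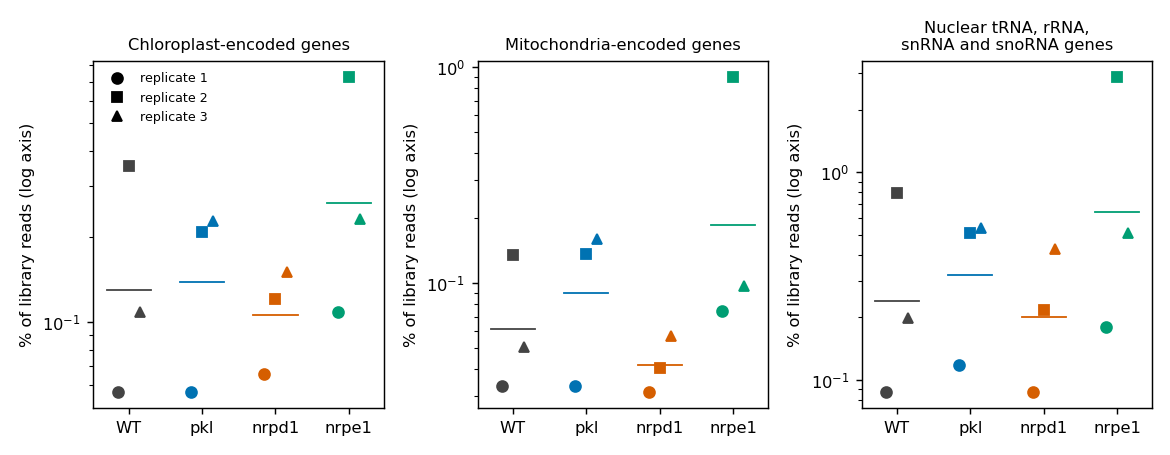
Percent of library reads on chloroplast genes (left), mitochondrial genes (middle) and nuclear tRNA, rRNA, snRNA and snoRNA genes (right), on log axes, for 4 genotypes; symbols mark the replicate number and horizontal lines the geometric mean of 3 libraries. Replicate 1 is lowest in every genotype in all 3 panels, and nrpe1 replicate 2 is highest, at 0.729%, 0.906% and 2.89%.

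Without regard to replicate number, no mutant differed from WT in the chloroplast share beyond the spread of replicates. The share was 0.164% ± 0.0930 in pkl, 0.113% ± 0.0430 in nrpd1 and 0.356% ± 0.329 in nrpe1, against 0.174% ± 0.159 in WT (mean ± SD, n = 3 libraries each). The log2 ratio of geometric means was 0.09 for pkl (two-sided exact permutation p = 1), -0.29 for nrpd1 (p = 0.9) and 1.02 for nrpe1 (p = 0.5), where 3 against 3 libraries cannot give a p below 0.1. nrpd1 was below nrpe1 by 1.31 on the log2 scale (ratio -1.31, exact permutation p = 0.3).

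Compared between libraries of equal replicate number, nrpe1 was above WT by 0.93, 1.04 and 1.08 on the log2 scale, 3 of 3 pairs with an SD of 0.08. The exact sign-flip test over 3 pairs gave p = 0.25, the smallest it can give. Whether libraries of equal number form pairs was not tested. The mitochondrial share was above WT in the same 3 pairs, by 1.15, 2.74 and 0.94 on the log2 scale, and that of nuclear tRNA, rRNA, snRNA and snoRNA genes by 1.05, 1.86 and 1.36, and their part in the chloroplast difference was not tested. For pkl the differences within a number were -0.0031, -0.78 and 1.06, and for nrpd1 0.21, -1.55 and 0.47, with no common direction. In whole seedlings, a change in the number of green cells, in chloroplasts per cell or in RNA per chloroplast cannot be told apart.

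RNA that normally lacks a long poly(A) tail moved with the chloroplast share. The mitochondrial share ranged from 0.0313% to 0.906% of library reads, and the share of nuclear tRNA, rRNA, snRNA and snoRNA genes from 0.0873% to 2.89%. Over the 12 libraries, the log2 chloroplast share and the log2 share of these nuclear RNAs had Pearson's r = 0.99 (permutation p = 1e-05, adjusted 4e-05, the smallest p that 100000 permutations can give) and Spearman's rho = 0.95 (permutation p = 2e-05, adjusted 8e-05). Without nrpd1 replicate 1 and nrpe1 replicate 2, farthest from the median, r was 0.98, and without the 4 libraries numbered 1 it was 0.98.

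With the mitochondrial share r was 0.94 (permutation p = 3e-05, adjusted 6e-05) and rho 0.87 (permutation p = 0.00059, adjusted 0.00118), and r was 0.92 without the 2 farthest libraries (pkl replicate 3 and nrpe1 replicate 2). With the library total r was -0.67 (permutation p = 0.02121, adjusted 0.02828) and rho -0.30 (permutation p = 0.34196, adjusted 0.34196), which rests on WT replicate 2 and nrpe1 replicate 2, since r was 0.10 without them. Without the 4 libraries numbered 1 it was -0.89 (n = 8), a set that still holds those 2 libraries. These are 4 relations in all, p-values were adjusted over the 4 by Benjamini-Hochberg, and with 4 libraries of a number and 3 of a genotype no correlation was computed within either. The permutations took the 12 libraries as exchangeable, though replicate 1 had the lowest chloroplast share in each genotype. The library total is also the denominator of that share, so the 2 are not independent measures.

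Nuclear genes of green tissue went the other way. The 16 listed genes for antenna, photosystem and Rubisco proteins held 4.97% to 9.20% of library reads, and replicate 1 was highest in each of the 4 genotypes, where the chloroplast share was lowest. The relation had r = -0.60 (permutation p = 0.03899, adjusted 0.03899) and rho = -0.61 (permutation p = 0.03953, adjusted 0.0527). It was -0.38 without WT replicate 1 and nrpd1 replicate 1, the farthest from the median, and 0.29 without the libraries numbered 1, so it rests on those libraries. All 16 were expressed in every library. The part that these other RNAs and the replicate number play in the chloroplast levels was not tested.

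Members did not all follow the chloroplast share to the same degree. A chloroplast factor was computed for each library as the median ratio over 67 protein-coding members above 0 in every library, and it ran from 0.330 in pkl replicate 1 to 4.25 in nrpe1 replicate 2. For each of the 82 members above 0 in all 12 libraries, the slope of log2 RPKM on the log2 factor describes how closely the member followed it; a slope of 1 means in proportion. The median slope was 1.02, 67 members lay between 0.5 and 1.5, 8 were under 0.5 and 7 over 1.5. The members nearest to the lower limit had slopes of 0.46 and 0.55. The factor is itself computed from these members, so the slopes are descriptions.

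rpoB had the lowest slope, 0.05. It measured 6.25, 3.97 and 5.14 RPKM in WT, 5.84, 7.57 and 7.997 in pkl, 8.33, 5.79 and 3.404 in nrpd1, and 9.16, 9.36 and 4.099 in nrpe1, a range of 2.75-fold where the median member ranged over 20.9-fold. Nuclear genes above 0 in all libraries, 20847 of them, had a median range of 1.86-fold.

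rpoC1 and rpoC2, which lie in one operon with rpoB, had slopes of 0.26 and 0.34, whereas rpoA, encoded elsewhere with ribosomal protein genes, had 0.99. clpP, which is known to have a promoter for the nuclear-encoded polymerase, had a slope of 0.44, with 11.7, 24.5 and 12.9 RPKM in WT, 12.1, 21.1 and 17.2 in pkl, 13.6, 16.7 and 13.7 in nrpd1, and 15.9, 39.5 and 19.4 in nrpe1. It was the lowest of its group of remaining protein genes, whose 6 members above 0 in every library had slopes up to 1.27 and a median of 1.14. The part of the promoter in these slopes was not tested. The other members under 0.5 were rpl2 (ATCG01310, 0.26), petN (0.42), rpl32 (0.43) and the tRNA feature ATCG00410 (0.46). This rpl2 copy lies in the inverted repeat and had 2 to 13 reads per library, 74 in all, so its slope is uncertain. ATCG00410 had 1 read each in WT replicate 1 and nrpe1 replicate 2.

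Without nrpe1 replicate 2, the slopes of rpoB, rpoC1 and rpoC2 were -0.10, -0.02 and -0.04, and that of clpP was 0.35. Those of petN, rpl32 and ATCG00410 then were 0.97, 0.74 and 1.12, so their low slopes rested on that 1 library. The steepest slopes were those of ndhE (1.83), psaI (1.71), 23S ribosomal RNA (1.70 and 1.61), petL (1.67), ndhI (1.56) and ndhG (1.52). ndhE, a membrane subunit of the dehydrogenase complex, measured 0.18 RPKM (1 read) in pkl replicate 1 and 41.3 in nrpe1 replicate 2, the widest range of all, 229.3-fold.

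**Figure D2:**
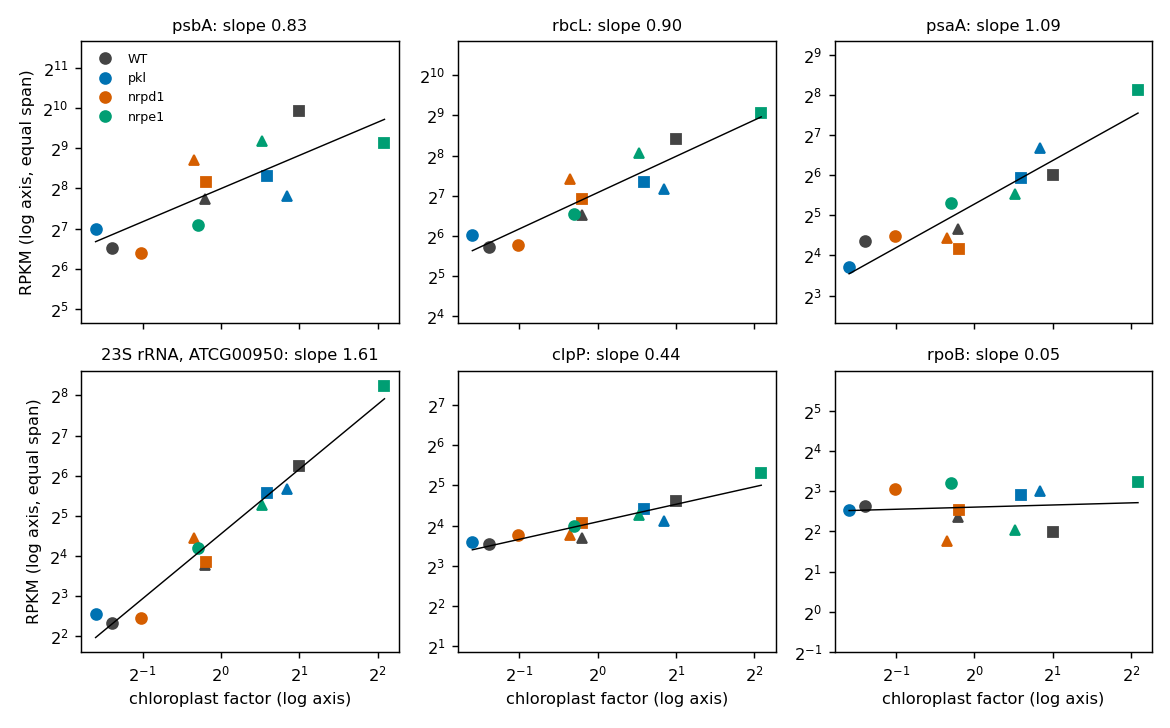
RPKM of 6 chloroplast genes against the chloroplast factor of each library, both on log axes with an equal span in every panel; colours mark genotypes, circles, squares and triangles replicates 1, 2 and 3, and lines the least-squares fit. The slope falls from 1.61 for 23S ribosomal RNA through 1.09 for psaA and 0.83 for psbA to 0.44 for clpP and 0.05 for rpoB.

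As a share of chloroplast reads, the polymerase genes therefore ranged most among the functional groups. rpo genes held 0.754% (95% exact interval 0.683% to 0.830%) in WT replicate 2 and 8.20% (7.72% to 8.70%) in nrpd1 replicate 1, a 10.9-fold range. Ribosomal RNA ranged from 4.27% in nrpd1 replicate 1 to 22.0% in nrpe1 replicate 2, a 5.16-fold range. Photosystem II genes had the narrowest range, from 23.5% in nrpe1 replicate 2 to 41.5% in WT replicate 2. Intervals cover counting error only, since reads made by PCR are not independent molecules.

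None of the functional groups separated a mutant from WT by its share of chloroplast reads. In all 39 comparisons of a group between a mutant and WT, the values of the 3 libraries overlapped those of WT, and the exact permutation p-values ran upward from 0.2 (adjusted p = 0.92 or above over the 39). Of chloroplast reads, rpo genes held 3.47% ± 2.79 in WT libraries, 3.70% ± 1.97 in those of pkl, 4.03% ± 3.63 in those of nrpd1 and 2.87% ± 2.49 in those of nrpe1 (mean ± SD, n = 3). The lowest p was reached by the tRNA features, 0.726% ± 0.252 in nrpe1 and 1.06% ± 0.346 in WT (exact permutation p = 0.2, n = 3), and by the members without a group, 1.72% ± 0.369 in nrpe1 and 1.16% ± 0.384 in WT (exact permutation p = 0.2, n = 3).

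The 2 libraries with the highest factor, nrpe1 replicate 2 and WT replicate 2, did not hold the same members. Of the 82 members, 60 had their highest value in nrpe1 replicate 2, 20 in WT replicate 2 and 2 in another library. Feature length went with this: of 23 members under 200 bases, 17 were highest in WT replicate 2, and of 59 longer members 3 were, while 55 were highest in nrpe1 replicate 2. The limit of 200 bases was chosen after the values were seen, and no test is given.

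petN, 90 bases long, had 7.41, 144 and 16.6 RPKM in WT replicates 1, 2 and 3 but 8.71, 9.25 and 38.3 in nrpe1. psbM, a small photosystem II subunit of 105 bases, had 179 RPKM in WT replicate 2 and 30.4 in nrpe1 replicate 2. Both short transcripts were far lower in the nrpe1 library, although its chloroplast factor was higher. In reads, petN had 197 in WT replicate 2 and 6 in nrpe1 replicate 2, and psbM 287 and 23, so the low values rest on few reads in 1 library. psbA, of 1062 bases, also was higher in WT replicate 2, with 968 RPKM against 563.

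psaA and psaB, the reaction centre proteins of photosystem I, went the other way, with 63.6 and 61.3 RPKM in WT replicate 2 and 277 and 277 in nrpe1 replicate 2. psbT, of 102 bases, is short but lies in the psbB gene cluster with petB and petD. It had 114 RPKM in WT replicate 2 and 271 in nrpe1 replicate 2, as did its neighbour petB with 59.8 and 220. After division by the chloroplast factor, the median log2 ratio of WT replicate 2 over nrpe1 replicate 2 was 2.11 for the 23 short members (range -1.94 to 5.04) and -0.32 for the 59 others (range -2.65 to 1.87).

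**Figure D3:**
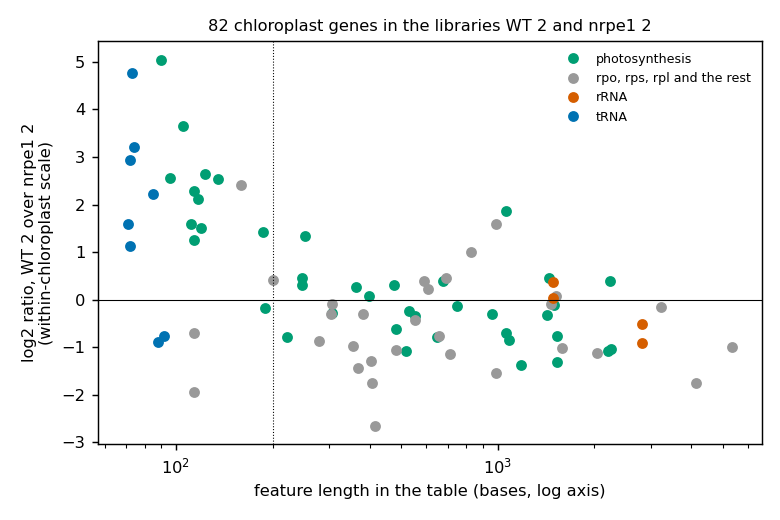
Log2 ratio of WT replicate 2 over nrpe1 replicate 2, each divided by its chloroplast factor, against feature length in bases (log axis) for 82 chloroplast genes, coloured by kind of gene; the dotted line marks 200 bases. Most short features lie above 0 (median 2.11) and longer ones around or below it (median -0.32).

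**Figure D4:**
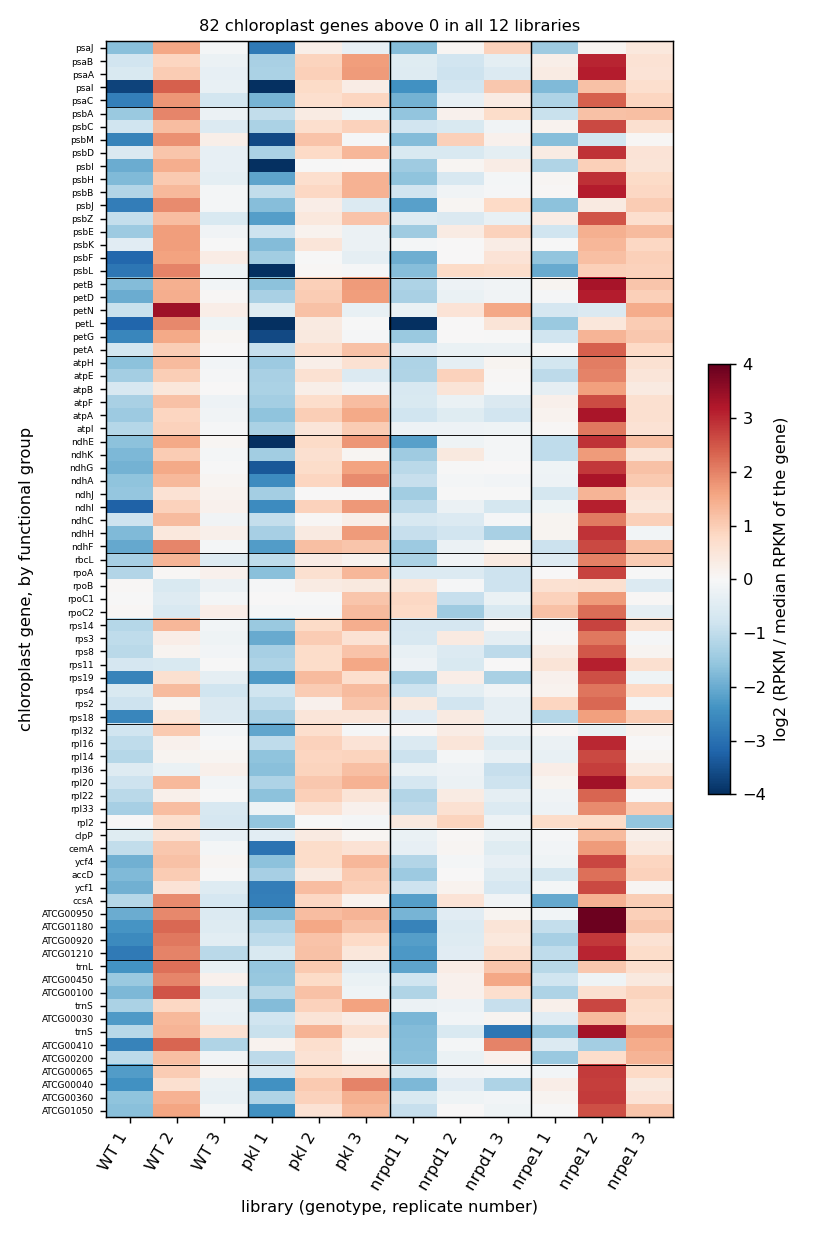
Heat map of 82 chloroplast genes (vertical, by functional group, in order of mean level within a group) in 12 libraries (horizontal), as log2 of RPKM over the median of the gene. Of the 82 genes, 77 have their lowest value in a library numbered 1 (blue), most are high in WT replicate 2 and nrpe1 replicate 2 (red), and rpoB changes little.

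Each mutant was then compared with WT gene by gene. Of the 133 members, 107 reached 0.1 RPKM in at least 3 libraries and were tested with limma on log2(RPKM + 0.1), together with all 23669 features that passed, with Benjamini-Hochberg adjustment over all of them. A feature was called at an adjusted p under 0.05 and a change of at least 2-fold. The scales were the RPKM as deposited (library scale) and RPKM of chloroplast genes divided by the chloroplast factor (within-chloroplast scale).

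On the library scale, no member was called in any comparison. Among all features tested, 1.9% were called for pkl against WT, 0.972% for nrpd1, 0.435% for nrpe1 and 0.613% for nrpd1 against nrpe1. At an unadjusted p under 0.05 there were 3 members for pkl, 0 for nrpd1, 5 for nrpe1 and 12 for nrpd1 against nrpe1, of 107 each, where 15.5%, 4.61%, 4% and 3.13% of all features tested lay under it. limma's voom fit on the recovered reads also called 0 members in each comparison. With the replicate number as a term of the fit, 48 members lay under it for nrpe1 (10.4% of all features) and 63 for nrpd1 against nrpe1 (5.59% of all features), and none was called, with lowest limma adjusted p-values of 0.24 and 0.0715. The median standard error of a log2 fold change was 0.94 for members and 0.23 for the other features, so that members were measured with much wider error.

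The members' medians of log2 fold change were 0.22 in pkl, -0.19 in nrpd1 and 1.00 in nrpe1, where the medians of all features were 0.07, 0.04 and 0.01. They turned on single libraries. Leaving out each library in turn, the pkl median ran from -0.41 (without WT replicate 1) to 0.94 (without pkl replicate 1), that of nrpd1 from -0.93 (without WT replicate 1) to 0.39 (without WT replicate 2), and that of nrpe1 from 0.30 (without nrpe1 replicate 2) to 1.62 (without nrpe1 replicate 1). In nrpe1, 92 of 107 members had a fold change above 0 and 14 below, and 4 had libraries that did not overlap those of WT, where 7.02% of all features tested did not. psbA differed from WT by -0.35 ± 0.89 (SE) in pkl, -0.30 ± 0.89 in nrpd1 and 0.41 ± 0.89 in nrpe1 (limma adjusted p = 0.93, 1 and 1). rbcL differed by -0.03 ± 0.77, -0.19 ± 0.77 and 1.00 ± 0.77 (limma adjusted p = 1 in each).

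nrpd1 and nrpe1 were also compared with each other. The members' median log2 fold change of nrpd1 over nrpe1 was -1.23, 90 of 107 members were lower in nrpd1, and 29 of the 107 had libraries that did not overlap, where 5.45% of all features tested did not. Members rise and fall together between libraries, so that these 29 are not independent. The median ran from -1.76 without nrpe1 replicate 1 to -0.55 without nrpe1 replicate 2. psaA was 22.2, 17.8 and 21.8 RPKM in nrpd1 and 39.4, 277 and 45.9 in nrpe1, and these groups did not overlap. Its log2 fold change was -1.95 ± 0.84 (SE, limma adjusted p = 1). nrpe1 enters both this comparison and the one with WT, and the 2 sets of values share those libraries.

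On the within-chloroplast scale the median standard error of members fell to 0.52, and the medians of log2 fold change were 0.08 in pkl, 0.14 in nrpd1 and 0.06 in nrpe1, as the scaling itself brings them near 0. No member was called here either, where 1.9%, 0.972%, 0.435% and 0.608% of all features were, and limma's voom fit called 0 as well. At an unadjusted p under 0.05 there were 4, 2, 8 and 13 members for pkl, nrpd1, nrpe1 and nrpd1 against nrpe1, where 15.5%, 4.61%, 4% and 3.13% of all features lay under it. psaA differed from WT by 0.29 ± 0.34 (SE) in pkl, -0.32 ± 0.34 in nrpd1 and 0.34 ± 0.34 in nrpe1. rpoB, which did not follow the factor, had a wider error on this scale, 0.86 against 0.37 on the library scale.

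**Figure D5:**
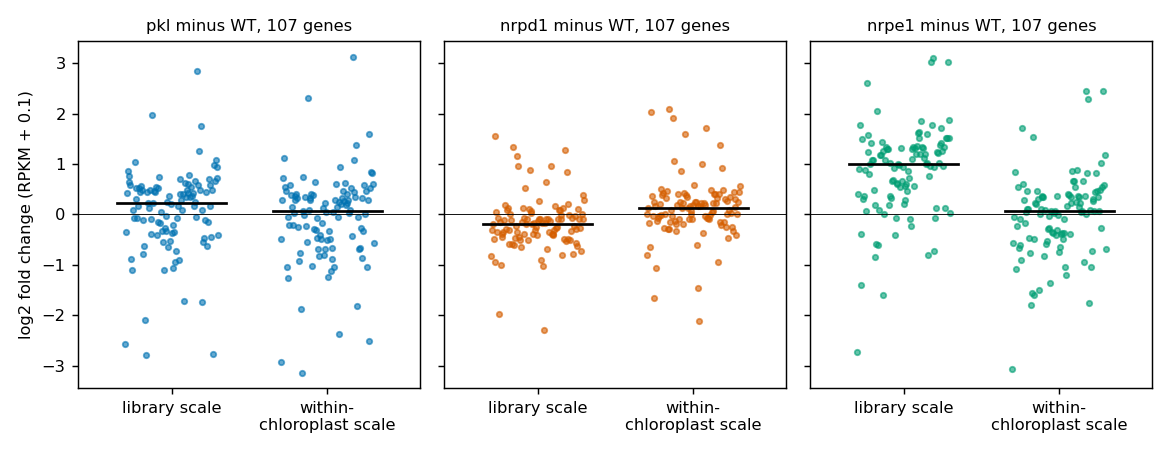
Log2 fold change of 107 chloroplast genes in pkl, nrpd1 and nrpe1 against WT on the library scale and on the within-chloroplast scale; each point is a gene, placed in gene order, and the line is the median. The nrpe1 median moves from 1.00 to 0.06, and no gene was called at an adjusted p under 0.05 and 2-fold.

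A few members were called in pkl when the replicate number was a term of the limma fit (replicate block). psbK and psbI are neighbouring genes for small photosystem II subunits, of 186 and 111 bases. Both are thus among the short features described above, and the part of feature length in their pkl values was not tested. On the within-chloroplast scale psbK measured 41.5, 34.6 and 24.9 in WT and 19.7, 20.1 and 10.3 in pkl, and the groups did not overlap. With the block its log2 fold change was -1.04 ± 0.29 (SE, limma adjusted p = 0.0452), and without it the adjusted p was 0.159.

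psbI measured 30.2, 62.6 and 41.7 in WT and 7.51, 30.1 and 25.5 in pkl on the same scale, without overlap but with 1 value of each genotype almost equal. The value of 7.51, in pkl replicate 1, rests on 5 reads. The log2 fold change of psbI was -1.25 ± 0.34 with the block (limma adjusted p = 0.0398) and its adjusted p 0.262 without. On the library scale neither was called with the block (limma adjusted p = 0.139 for psbK and 0.193 for psbI). With the block, 3.5% of all features were called for pkl on the library scale and 3.52% with members on the within-chloroplast scale, against 1 and 3 of 107 members.

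ATCG00905, an unnamed feature of 258 bases, was the third of these calls. It had 0, 1 and 0 reads in WT, 3, 5 and 7 in pkl, 0, 2 and 0 in nrpd1, and 0, 3 and 0 in nrpe1, 21 reads in all. With the block its log2 fold change in pkl was 2.85 (limma adjusted p = 0.0328) on the library scale and 3.12 (0.0151) within the chloroplast, and without the block the adjusted p was 0.214 and 0.0651. The WT libraries lie under the limit of 3 reads, so the fitted size depends on the pseudocount and no fold is drawn from it. Its reads are also uncertain because of ATCG01230, its partner of equal length.

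The largest fitted changes in either direction were otherwise those of features with few reads. In pkl trnY (ATCG00240), with 0 to 5 reads per library, had the lowest value on both scales, -2.80 on the library scale. In nrpd1 ATCG00620, with 0 to 10 reads, had -2.30, and in nrpe1 ATCG00960, with 0 to 4 reads, had 3.11. None of these 3 was called, and with so few reads a missing call does not show that they were unchanged. The other members among the 3 lowest and 3 highest of a mutant, on either scale, were mostly transfer and 4.5S or 5S ribosomal RNA features, together with rps16, ATCG00905 and petN, which had -1.79 in nrpe1 on the within-chloroplast scale (limma adjusted p = 1).

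Nuclear genes whose proteins act in chloroplast transcription were read in the same libraries, from a list of 20 that holds the sigma factors, the phage-type polymerases and the proteins associated with the bacterial-type polymerase. None was called at 2-fold, but 5 rose in pkl at an adjusted p under 0.05 at any size and 0 fell, where 1.83% of all features rose by that rule. The gene lists here and below were chosen with earlier results of these data known, so their counts are descriptions. By that rule 432 of all features rose in pkl and 318 fell. With RPKM scaled by the median ratio over nuclear genes, 326 rose and 380 fell, and the lists were not run on that scale. PTAC12 was 27.1 ± 3.20 RPKM in WT and 42.7 ± 4.57 in pkl (mean ± SD, n = 3), higher by 0.66 ± 0.12 on the log2 scale (SE, limma adjusted p = 0.0162). FSD2, a plastid superoxide dismutase, was 21.6 ± 1.57 and 36.5 ± 3.02 RPKM (log2 fold change 0.76, limma adjusted p = 0.00697).

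PTAC3, FLN1 and PTAC10 were the others, with log2 fold changes of 0.57, 0.62 and 0.84 (limma adjusted p = 0.0339, 0.0305 and 0.0466). All 5 were between 18.5 and 46.9 RPKM in every library. With the block, 11 of the 20 rose in pkl, where 7.74% of all features did. In nrpd1 1 rose with the block, PTAC10 (0.57% of all features rose), with a log2 fold change of 0.45 (limma adjusted p = 0.0291). In nrpd1 and nrpe1 no gene of the list was called without the block. The list's median log2 fold change was 0.41 in pkl, 0.23 in nrpd1 and 0.14 in nrpe1.

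A second list holds 8 nuclear genes for ribonucleases and other proteins of chloroplast RNA processing and decay. None was called in any mutant without the block, with medians of log2 fold change of 0.28, 0.20 and 0.14 in pkl, nrpd1 and nrpe1. With the block 4 rose in pkl at any size, where 7.74% of all features rose. Among the 4 were PNP, the polynucleotide phosphorylase that adds and removes chloroplast RNA tails (log2 fold change 0.50, limma adjusted p = 0.0114), and RHON1 (0.38, limma adjusted p = 0.006). Of the 16 green tissue genes none was called without the block. With it 7 fell in pkl, where 4.73% of all features fell, and 1, RBCS1B, rose, where 7.74% of all features rose.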

How the data were processed

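RNA of 12 libraries (4 genotypes with 3 libraries each) was poly(A)-selected and sequenced from stranded mRNA libraries. Per the submitters' processing notes and the study's methods, the authors used CASAVA 1.8, Trim Galore 0.4.0 (bases under a quality of 30 removed), Subread 1.5.1 on TAIR10, featureCounts over genes and transposable elements, and edgeR. The deposited table holds RPKM values by the authors, relative to length and library total; handling of multi-mapped or overlapping reads and of strand in counting is not given in the sources used here. Since 1 read is worth a fixed RPKM in a library, the whole reads behind each value, the lengths and the totals could be computed back (100% of 28130 features above 0 gave whole reads within 0.0001); for features with few reads they are the smallest that give these values. One read limits precision most in nrpe1 replicate 2.

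Members and gene lists were chosen with earlier results of these data known. RefSeq annotation holds no ATCG IDs: 68 members were named by a feature length that a single RefSeq chloroplast gene has, and 13 by length and place between named neighbours (54 of 54 steps in order rising). tRNAs received mostly a class. limma 3.58.1 in R 4.3.3 was fitted to log2(RPKM + 0.1), filtered at 0.1 RPKM in at least 3 libraries, and was tested on simulated data; Python 3.11.15 with scipy 1.17.1 gave exact tests and intervals. Groups and replicate numbers came from the sample titles. Nothing states that the libraries of a genotype came from separate cultures, so p-values may measure technical spread only. Deviations of WT and mutant libraries of equal number correlated over all features in 9 of 9 pairs (r from 0.149 to 0.563). The highest r, 0.556 to 0.563, were those of replicate 1. Over the chloroplast genes alone r ran from -0.355 to 0.613. The 9 pairs share the WT libraries, and libraries of unequal number were not correlated. Whether the numbers pair the libraries was therefore not tested. The labels give a day of 12 h light, the study's plant methods another. Named were the 5 highest members, the highest members of most functional groups, members called on either scale or in the block, and extremes of each comparison. Slopes, short features and psbM were described after their values were seen, and psaA was named outside these rules. Alternatives were another pseudocount, no filter, the replicate block, voom on recovered reads, other scalings and leaving out each library.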

Additional observations from a re-analysis of the deposited data

How the results depend on the processing

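The count of chloroplast genes called was 0 in each of the 4 comparisons on both scales, and it remained 0 under every alternative for nrpd1 and nrpe1 against WT and for nrpd1 against nrpe1. For pkl on the library scale it was 1 with the replicate block and 0 under all other alternatives. For pkl on the within-chloroplast scale it was 3 with the replicate block (ATCG00905, psbK and psbI), 1 with a pseudocount of 1, 1 with a factor from summed RPKM, and 0 to 1 when each library was left out; ATCG00905 was that 1 gene without nrpd1 replicate 2 (limma adjusted p = 0.0422) and without nrpe1 replicate 2 (0.0393). It rests on 21 reads, uncertain for its partner ATCG01230 of equal length. With the replicate block on the library scale, members with an unadjusted p under 0.05 went from 5 to 48 for nrpe1 and from 12 to 63 for nrpd1 against nrpe1, where all features went from 4% to 10.4% and from 3.13% to 5.59%, and the lowest limma adjusted p from 0.834 to 0.24 and from 1 to 0.0715. The block changed no other call of a member.

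Leaving out each library in turn, the log2 ratio of the chloroplast share ran from -0.50 to 0.82 for pkl, from -0.89 to 0.43 for nrpd1, from 0.28 to 1.74 for nrpe1 and from -1.95 to -0.57 for nrpd1 against nrpe1. The sign for pkl turned without WT replicate 1 (-0.5025), WT replicate 3 (-0.0359), pkl replicate 2 (-0.1956) or pkl replicate 3 (-0.2619), and that for nrpd1 without WT replicate 2 (0.4341) or nrpd1 replicate 1 (0.0542). The cause was not tested. With protein-coding rows alone the ratios kept their signs. The number of functional groups whose share did not overlap WT, 0 with all libraries, ran from 0 to 4 for pkl, 0 to 3 for nrpd1 and 0 to 4 for nrpe1, where 2 libraries of one genotype stood against 3 of the other. The 15 members without reads and the 19 with at most 3 in any library hold too few reads to show a difference. Whether depth or the counting of reads with several positions limits them was not tested. The copies of ycf2 in the inverted repeat, of 6885 bases, had 1 read each, and ycf1 (ATCG01130), of 5361 bases, had 1211. For depth, 1 read in nrpe1 replicate 2 is worth most.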
